A study of Homo sapiens with 4 samples.

Results

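Methylation of lysine 36 of histone H3 (H3K36) is read by proteins with PWWP, chromo, Tudor or similar domains, and 10 genes for such readers, or for partners that tie the methyltransferase SETD2 to elongating RNA polymerase II, are described here out of 32673 genes measured. They were chosen by name, by a rule that uses no measured value but was set with earlier results of these data known, and all 10 passed the filter on low expression. RNA was compared between imatinib-sensitive TF1-BA cells and imatinib-resistant TF1-BAR cells, with 2 libraries (replicates 1 and 2) of each. TF1 is a human erythroleukaemia line that depends on GM-CSF, and both lines carry the BCR-ABL oncogene, so that BCR-ABL is shared by the groups and TF1-BAR cells differ in their selection with imatinib, a BCR-ABL kinase inhibitor. By the sample labels all cells grew with 10% serum and 2 ng/ml GM-CSF, where the study's methods give a higher concentration, and 2 µM imatinib was added to the TF1-BAR culture. Whether the drug was present at RNA extraction is not stated, and the TF1-BAR libraries are titled VECTOR, so that resistance, drug exposure and a possible control vector cannot be told apart. Nothing says that the replicates of a line came from separate cultures or selections, so the p-values measure the spread between these libraries, which may be technical.

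SETD2 travels with elongating polymerase and deposits trimethylation of H3K36 over gene bodies, whereas NSD and ASH1L enzymes make the dimethylated form. The mark is bound by DNMT3A and DNMT3B, which methylate DNA, by MSH6 of the mismatch repair machinery, by ZMYND11, which restrains elongation, by MORF4L1 and BRPF1 of histone acetylation complexes, by the adaptor PSIP1, and by PHF1 and PHF19, the Polycomb-like subunits of the H3K27 methyltransferase PRC2. IWS1 recruits SETD2 to the polymerase through SUPT6H. In blood-forming cells DNMT3A is a known leukaemia gene and PSIP1 a known cofactor of KMT2A and its fusions.

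PHF19 and DNMT3B were the members that passed the test, so the 150 bases before each of their starts annotated by RefSeq are shown, on GRCh38.p14 and written 5′ to 3′ on the gene's own strand. These starts lie inside the genes as the table places them, 17.5 kb from the first base of DNMT3B and 26.0 and 17.7 kb from that of PHF19, and no window at those first bases was used here. Capitals mark CCGGAAG, a core of the motif of ETS factors, the family of ERG, whose mRNA the study followed.
DNMT3B, chr20:32779702-32779851, plus strand: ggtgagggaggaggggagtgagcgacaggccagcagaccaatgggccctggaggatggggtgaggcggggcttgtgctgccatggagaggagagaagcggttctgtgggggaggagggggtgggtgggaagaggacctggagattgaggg
PHF19, chr9:120868912-120869061, minus strand: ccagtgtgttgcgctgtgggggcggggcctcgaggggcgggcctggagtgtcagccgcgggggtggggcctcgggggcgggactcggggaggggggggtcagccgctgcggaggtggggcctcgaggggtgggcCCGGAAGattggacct
PHF19, chr9:120877189-120877338, minus strand: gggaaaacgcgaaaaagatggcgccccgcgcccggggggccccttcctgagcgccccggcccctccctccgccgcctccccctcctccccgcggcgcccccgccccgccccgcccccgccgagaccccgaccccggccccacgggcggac
The windows searched were 300 bases long and on both strands. CCGGAAG or its complement CTTCCGG lay in 1 of 28 windows of the members, that of PHF19, and in 10.3% of 35116 windows of all genes. CACGTG, the E-box bound by MYC and MYCN, was in 3 of 28 windows, of 2 members, DNMT3A and ZMYND11, and in 7.3% of all windows. TTCCCGC or GCGGGAA, an E2F core, was in 7 of 28 windows, of 3 members, MSH6, PHF19 and ZMYND11, and in 6.6% of all windows. Some members have many more windows than others, mainly DNMT3A, MSH6 and ZMYND11. Some windows overlap and hold the same match, so that the counts of the members cannot be compared as shares. No motif contains another, and matches outside the 150 bases printed are not marked. A match is a description of sequence and not of binding.

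The values are FPKM, fragments scaled to gene length and library size, so levels can be compared between genes only as far as the lengths used hold. The exon lengths recovered were 12020 bp for DNMT3A, 10993 bp for MSH6, 6584 bp for MORF4L1 and 4630 bp for DNMT3B. A length greater than that of the transcripts present lowers the FPKM, so the order of the members depends on these lengths. The fragment numbers behind them were recovered, and the libraries held 15465497 to 18042299 fragments. The members had between 410 and 5841 fragments in a library, so that counting error was small for each. MORF4L1 had the highest mean level over the 4 libraries, 46.2 FPKM, followed by PSIP1 with 30.1, DNMT3B with 27.9 and IWS1 with 20.2 FPKM. PHF1, ZMYND11, PHF19 and MSH6 followed with mean levels of 15.0, 14.3, 12.2 and 10.8 FPKM, then BRPF1 with 8.59 and DNMT3A with 2.55 FPKM. The ranges of the libraries did not overlap between MORF4L1 and PSIP1, DNMT3B and IWS1, IWS1 and PHF1, or BRPF1 and DNMT3A. The other neighbours in this order overlapped, although MSH6 was above BRPF1 in each of the 4 libraries. MORF4L1 stood at the 94.8th percentile of mean FPKM among the tested genes and DNMT3A at the 36.4th.

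Differences were tested with limma on log2(FPKM + 0.5) across 15519 genes whose mean FPKM reached 0.5, and a gene is said to have risen or fallen where its Benjamini-Hochberg adjusted p was under 0.05. PHF19 and DNMT3B rose in TF1-BAR cells and 0 members fell. Over all tested genes, 26.9% passed in either direction, 16.3% higher and 10.5% lower, so that 2 of 10 members is near the background. 0 members passed the adjusted p threshold together with a log2 fold change of 1 or more in either direction, against 4.75% of all genes. The libraries of the lines were separate, without overlap, for 8 of 10 members, 6 higher and 2 lower, against 69.3% of all genes in either direction, 40.9% higher and 28.4% lower. The median log2 fold change of the members was 0.25, beside 0.07 for all tested genes. At an unadjusted p under 0.05, 6 members passed, against 42.2% of all genes. Of all calls 60.9% were higher in TF1-BAR cells, a share that was 70.2% after rescaling to TPM. It was 50.4% after removal of the GC and length trend and 48.2% after centring each chromosome, and both steps themselves set the balance. Removal of the GC and length trend subtracted a fit of the log2 fold change on GC, length and mean level, with the overall shift included. Centring set the median level of each chromosome's genes equal in the 4 libraries. With 2 libraries per line, the exact permutation test of a single gene cannot go below 0.333, and the adjusted p-values of limma borrow their spread from all genes.

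The Polycomb-like subunits PHF1 and PHF19 bind H3K36 trimethylation through a Tudor domain and are accessory subunits of PRC2. PHF19 (ENSG00000119403, chromosome 9 from 120855652 to 120894896, minus strand) had 9.39 and 9.58 FPKM in the TF1-BA libraries and 13.8 and 15.9 FPKM in the TF1-BAR libraries. Both resistant libraries were higher, from 1460 and 1726 fragments against 1141 and 998. The means were 9.49 ± 0.136 and 14.9 ± 1.55 FPKM (SD, n = 2 each), a 1.57-fold ratio and a log2 fold change of 0.62 (SE 0.0939, 95% interval 0.37 to 0.86, adjusted p = 0.0138 from limma). PHF1 (ENSG00000112511, chromosome 6 from 33410399 to 33416453, plus strand) had 12.6 and 14.5 FPKM in TF1-BA cells and 16.0 and 16.9 FPKM in TF1-BAR cells. These did not overlap either, but the log2 fold change of 0.28 (SE 0.0924, adjusted p = 0.0852) did not pass, and it was 0.18 without TF1-BA replicate 1. The third Polycomb-like gene, MTF2, had 14.6 ± 1.05 FPKM in TF1-BA and 14.1 ± 1.16 FPKM in TF1-BAR cells, a log2 fold change of −0.05 (adjusted p = 0.708). PHF19 made up 25.2% and 25.3% of the summed FPKM of the trio in TF1-BA cells and 30.8% and 34.6% in TF1-BAR cells. The share of MTF2 was 41.1% and 36.5% in TF1-BA cells and 33.3% and 28.7% in TF1-BAR cells, and that of PHF1 overlapped between the lines. The ratio of PHF19 to EZH2, the catalytic subunit, was 1.24 and 1.25 in TF1-BA cells and 1.73 and 2.00 in TF1-BAR cells. EZH2 itself had 7.61 ± 0.0908 and 7.95 ± 0.0172 FPKM (adjusted p = 0.570).

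Of 8 core and cofactor genes of PRC2, 2 rose and 1 fell. EZH1, the alternative catalytic subunit, had 3.52 and 3.79 FPKM in TF1-BA and 5.28 and 6.24 FPKM in TF1-BAR cells, a log2 fold change of 0.59 (adjusted p = 0.0224). RBBP4, a histone-binding subunit, rose by 0.31 (adjusted p = 0.0280), and the cofactor JARID2 fell by 0.30 on the log2 scale (adjusted p = 0.0368). JARID2 is outside the rule for named genes and was chosen after its value was seen. SUZ12, a scaffold subunit, overlapped between the lines, with 19.5 ± 1.77 and 17.1 ± 1.76 FPKM.

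The DNA methyltransferases DNMT3A and DNMT3B bind H3K36 methylation through a PWWP domain and methylate new CpG sites. DNMT3B (ENSG00000088305, chromosome 20 from 32762385 to 32809356, plus strand) had 23.4 and 22.1 FPKM in the TF1-BA libraries and 30.2 and 36 FPKM in the TF1-BAR libraries. Both resistant libraries were higher, and they differed from each other by more than the sensitive ones did. The means were 22.7 ± 0.909 and 33.1 ± 4.09 FPKM (SD, n = 2 each), a 1.45-fold ratio and a log2 fold change of 0.53 (SE 0.102, 95% interval 0.26 to 0.79, adjusted p = 0.0244 from limma). DNMT3B lies on chromosome 20, and after centring each chromosome its log2 fold change was 0.08 (adjusted p = 0.535). DNMT3A (ENSG00000119772, chromosome 2 from 25227855 to 25342590, minus strand) had 2.2 and 2.21 FPKM in TF1-BA cells and 2.89 and 2.89 FPKM in TF1-BAR cells. Its replicates were nearly equal and the lines did not overlap. The log2 fold change was 0.33 (SE 0.0944, 95% interval 0.08 to 0.57, adjusted p = 0.0612), which did not pass. It was 0.13 after removal of the GC and length trend, a step that also removes a trend with mean level and the overall shift. In FPKM, DNMT3B exceeded DNMT3A 10.6-fold and 10.0-fold in TF1-BA cells and 10.5-fold and 12.4-fold in TF1-BAR cells, so that the balance of the pair overlapped between the lines. The fragments in TF1-BA replicate 1 were 1953 against 478, so the size of these ratios rests on the exon lengths used. DNMT1, which copies methylation after replication, had 52.2 ± 0.288 and 51.1 ± 0.00695 FPKM (log2 fold change −0.03, adjusted p = 0.717). Of the summed FPKM of these 3 methyltransferases, DNMT3B took 30.1% and 28.8% in TF1-BA cells and 35.9% and 40.0% in TF1-BAR cells.

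Of the 6 listed partners in DNA methylation, 5 were tested, 0 rose and 2 fell. TET1, which oxidises methylcytosine, had 3.48 and 3.14 FPKM in TF1-BA cells and 1.54 and 1.24 FPKM in TF1-BAR cells. Its log2 fold change was −1.01 (SE 0.131, adjusted p = 0.0103), and it was the single gene among 57 tested complex partners that passed both thresholds. It lay just past the fold threshold, and was −0.85 with a pseudocount of 1 FPKM, −0.60 after centring each chromosome, −0.95 without TF1-BA replicate 1 and −0.90 without TF1-BAR replicate 2. UHRF1, which guides DNMT1 to hemimethylated DNA, fell by 0.38 on the log2 scale (adjusted p = 0.0467). TET2 and TET3 did not pass, with log2 fold changes of 0.11 and 0.32. DNMT3L, a cofactor of the new methyltransferases, was below the filter with 1 to 5 fragments in a library.

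MSH6 recognises DNA mismatches and has a PWWP domain that binds H3K36 trimethylation. MSH6 (ENSG00000116062, chromosome 2 from 47695530 to 47810101, plus strand) had 9.94 and 9.95 FPKM in TF1-BA cells and 12.1 and 11.2 FPKM in TF1-BAR cells. The resistant libraries were both higher, but the log2 fold change of 0.22 (SE 0.0761, 95% interval 0.02 to 0.41, adjusted p = 0.0942) did not pass. Its exons share 4288 bp, or 24.2% of their length in GENCODE 44, with FBXO11 and a ribosomal pseudogene on the opposite strand, and a kit that does not mark strand cannot tell their reads apart, so the level of MSH6 is uncertain. MSH3, a related mismatch recognition gene named after its value was seen, had 7.60 and 7.11 FPKM in TF1-BA cells and 6.17 and 5.92 FPKM in TF1-BAR cells (log2 fold change −0.26, adjusted p = 0.0696).

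Of 8 mismatch repair partners, 2 rose and 1 fell. EXO1, the nuclease that removes the mismatched strand, had 17.8 ± 0.722 and 23.5 ± 2.57 FPKM, a log2 fold change of 0.39 (adjusted p = 0.0428). PCNA, the sliding clamp, had 90.2 and 80.7 FPKM in TF1-BA cells and 105 and 118 FPKM in TF1-BAR cells (log2 fold change 0.38, adjusted p = 0.0356). PCNA lies on chromosome 20, and after centring each chromosome its log2 fold change was −0.07. The remaining 5 did not pass.

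PSIP1, also known as LEDGF, tethers the KMT2A-menin complex and other factors to chromatin with H3K36 methylation. PSIP1 (ENSG00000164985, chromosome 9 from 15464066 to 15511019, minus strand) had 33.2 and 34.0 FPKM in TF1-BA cells and 31.0 and 22.3 FPKM in TF1-BAR cells. Both resistant libraries were lower, but replicate 2 far more than replicate 1, from 2429 against 3304 fragments. The log2 fold change of −0.35 (SE 0.159, 95% interval −0.76 to 0.06, adjusted p = 0.165) did not pass. It was −0.12 without TF1-BAR replicate 2 (adjusted p = 0.232), and leaving out TF1-BAR replicate 1 gave −0.58 (adjusted p = 0.0285), so 1 library set its size. Of the 7 listed partners of PSIP1, 6 were matched by symbol and 0 passed in either direction. KMT2A had 11.2 ± 0.318 and 13.6 ± 0.846 FPKM (adjusted p = 0.0646), and MEN1, which encodes menin, had 9.11 ± 0.0526 and 9.94 ± 0.0293 FPKM (adjusted p = 0.252). Both were named after their values were seen.

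ZMYND11 recognises H3.3 with trimethylated K36 and holds back elongation. ZMYND11 (ENSG00000015171, chromosome 10 from 134465 to 254637, plus strand) had 14.6 and 13.9 FPKM in TF1-BA cells and 15.2 and 13.5 FPKM in TF1-BAR cells. The lines overlapped, and the log2 fold change was 0.01 (SE 0.0861, 95% interval −0.21 to 0.23, adjusted p = 0.935).

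MORF4L1, or MRG15, brings the NuA4 acetyltransferase and the SIN3B deacetylase complex to H3K36 methylation. MORF4L1 (ENSG00000185787, chromosome 15 from 78810487 to 78898133, plus strand) had 49.2 and 48.7 FPKM in TF1-BA cells and 46.7 and 40.3 FPKM in TF1-BAR cells. The resistant libraries were lower without overlap, with a log2 fold change of −0.17 (SE 0.0876, 95% interval −0.40 to 0.05, adjusted p = 0.203) that did not pass. Its size depended on single libraries, at −0.07 without TF1-BAR replicate 2 and −0.28 when TF1-BAR replicate 1 was left out. It also depended on the scaling, at −0.32 (adjusted p = 0.0593) after centring each chromosome with all libraries kept. Its processed copy MORF4L1P1 was counted separately and had 64.3 and 63.7 FPKM in TF1-BA and 56.3 and 53.9 FPKM in TF1-BAR cells over 967 bp, 838 to 1121 fragments a library. Reads of such a copy and of its parent can be exchanged in the authors' counting, so the level of MORF4L1 is uncertain. The ratio of MORF4L1 to its relative MORF4L2 was 0.488 and 0.465 in TF1-BA and 0.522 and 0.525 in TF1-BAR cells. Of 10 genes of MORF4L1 complexes, TRRAP, the large scaffold of NuA4, rose by 0.37 (adjusted p = 0.0269), SIN3B fell by 0.26 on the log2 scale (adjusted p = 0.0493), and the other 8 did not pass. The SIN3B call held in 6 of 16 alternatives, with an adjusted p of up to 0.283.

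BRPF1 is the scaffold that joins the acetyltransferases KAT6A and KAT6B to ING and MEAF6 subunits and carries a PWWP domain. BRPF1 (ENSG00000156983, chromosome 3 from 9731729 to 9748018, plus strand) had 7.76 and 7.17 FPKM in TF1-BA cells and 8.95 and 10.5 FPKM in TF1-BAR cells. The resistant libraries were both higher, with a log2 fold change of 0.36 (SE 0.104, 95% interval 0.09 to 0.62) and an adjusted p of 0.0621 that did not pass. BRPF1 passed in 3 of 16 alternatives, with an adjusted p of 0.0468 after centring each chromosome, 0.0410 after rescaling to TPM and 0.0124 with limma voom on the recovered fragments, and did not pass in the other 13, with up to 0.278. Of 6 genes of its complexes 0 passed in either direction, from MEAF6 with a log2 fold change of −0.07 to ING5 with 0.32 (adjusted p = 0.0905).

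IWS1 links SETD2 to elongating polymerase. IWS1 (ENSG00000163166, chromosome 2 from 127436207 to 127526886, minus strand) had 20.8 and 20.1 FPKM in TF1-BA cells and 19.2 and 20.9 FPKM in TF1-BAR cells. The lines overlapped, with a log2 fold change of −0.03 (SE 0.0742, 95% interval −0.22 to 0.17, adjusted p = 0.819). SUPT6H, the elongation factor that IWS1 binds, had 12.8 ± 0.121 and 12.6 ± 0.451 FPKM, and the ratio of IWS1 to SUPT6H was 1.63 and 1.55 in TF1-BA and 1.48 and 1.70 in TF1-BAR cells. Among 14 elongation partners 1 rose and 2 fell. SUPT4H1, the small subunit of DSIF, had 6.61 and 6.94 FPKM in TF1-BA and 9.70 and 12.1 FPKM in TF1-BAR cells, a log2 fold change of 0.64 (SE 0.120, adjusted p = 0.0226), while its partner SUPT5H had one of 0.10 (adjusted p = 0.358). CDC73, a subunit of the PAF1 complex, had 11.8 and 10.5 FPKM in TF1-BA and 8.78 and 7.22 FPKM in TF1-BAR cells, a log2 fold change of −0.46 (adjusted p = 0.0483). It passed in 9 of 16 alternatives, and was −0.28 (adjusted p = 0.160) after removal of the GC and length trend. LEO1, another subunit of that complex, had 27.4 and 26.1 against 21.4 and 21.1 FPKM (log2 fold change −0.33, adjusted p = 0.0252). All 6 listed genes of the PAF1 complex were lower without overlap, as were 28.4% of all genes, and of the 6 CDC73 and LEO1 passed, and all 6 had a negative log2 fold change under each of the 16 alternatives. LEO1 and the grouping of these 6 were singled out after the values were seen.

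The enzymes that set and remove the mark moved as follows. SETD2 had 9.45 and 9.11 FPKM in TF1-BA cells and 12.1 and 12.4 FPKM in TF1-BAR cells, a log2 fold change of 0.38 (SE 0.0703, 95% interval 0.20 to 0.57, adjusted p = 0.0213), so that its mRNA rose in these libraries. The study found its mRNA unchanged by qRT-PCR. By Western blot it found less SETD2 protein and less H3K36 trimethylation in TF1-BAR cells, neither of which is measured here. Among 7 methyltransferases, ASH1L and NSD3 also rose, by 0.43 (adjusted p = 0.0383) and 0.40 (adjusted p = 0.0345), and 0 fell. The ASH1L call held in 7 and the NSD3 call in 8 of 16 alternatives, and neither held after centring each chromosome (adjusted p = 0.0599 and 0.0793) or after removal of the GC and length trend (0.0775 and 0.0536). Among 6 demethylases, 0 rose and 2 fell, KDM4C with 3.12 and 2.89 against 2.05 and 1.77 FPKM (log2 fold change −0.54, adjusted p = 0.0292) and KDM4A with a log2 fold change of −0.29 (adjusted p = 0.0248). Among 13 other readers of the mark, 4 rose and 0 fell. The shares that passed in either direction were 38.5% of the writers and erasers, 30.8% of the other readers and 22.8% of all complex partners, against 26.9% of all genes, and nothing particular to these lists is read from their counts. ZMYND8, a reader with a PWWP domain and a bromodomain, had 23.8 and 23.5 FPKM in TF1-BA and 36.2 and 36.8 FPKM in TF1-BAR cells (log2 fold change 0.61, SE 0.0597, adjusted p = 0.00644). PWWP3A, listed as MUM1 in the table, had 2.62 and 2.82 against 4.11 and 4.13 FPKM (log2 fold change 0.52, adjusted p = 0.0190). The others that rose were BRD1, the BRPF1 relative, by 0.36 (adjusted p = 0.0267), and HDGF, the PSIP1 relative, by 0.26 (adjusted p = 0.0319), named after their values were seen. The median log2 fold change was 0.12 over the writers and erasers, 0.10 over the other readers and −0.02 over the complex partners.

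**Figure D1:**
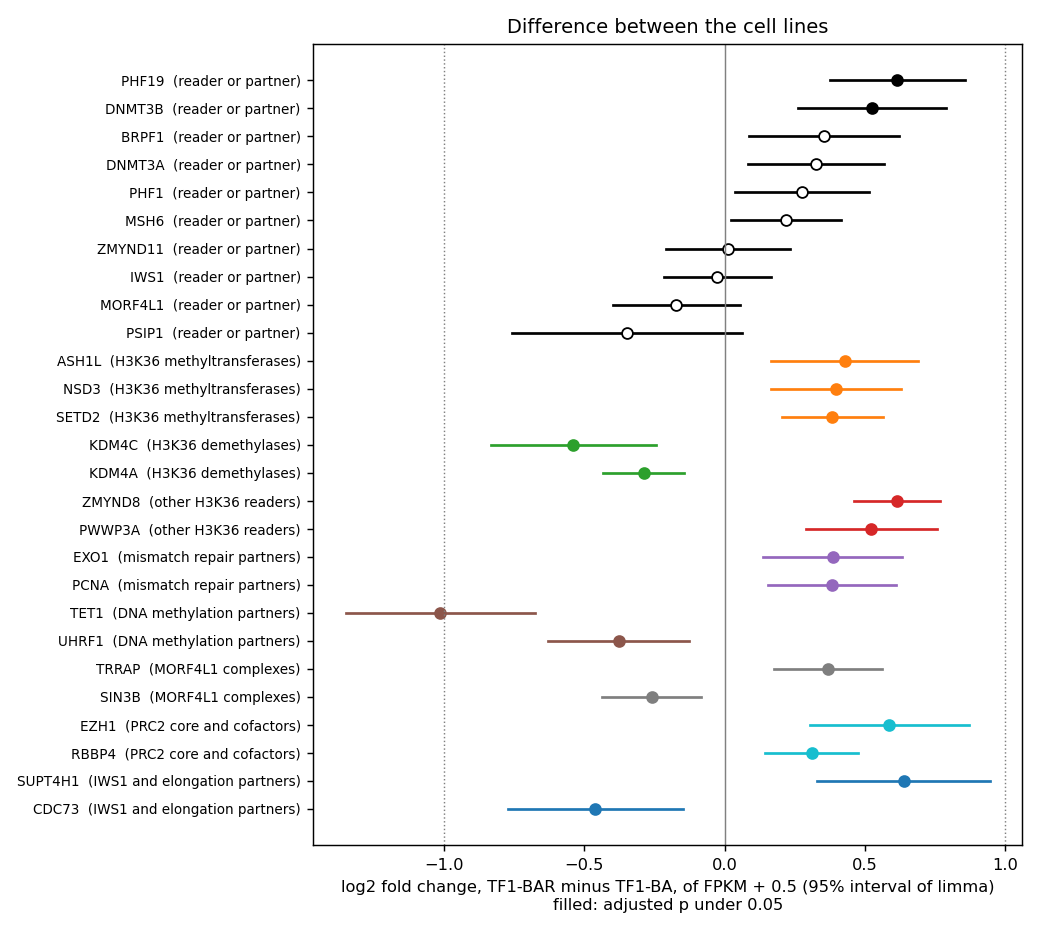
log2 fold change of FPKM + 0.5, TF1-BAR minus TF1-BA, with its 95% interval from limma, for the 10 readers and partners (black) and the named genes of the related lists (colours by list), where filled points have an adjusted p under 0.05 and dotted lines mark ±1. PHF19 at 0.62 and DNMT3B at 0.53 are the filled black points, and TET1 at −1.01 is the one gene beyond a dotted line.

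The chromosomes on which members lie did not all behave alike. The median log2 fold change of all tested genes was 0.39 on chromosome 20 and −0.35 on chromosome 10, and lay between −0.013 and 0.119 on each other chromosome. DNMT3B, at 0.53, was above 281 of 439 other tested genes of chromosome 20, and within 5 Mb of it 45 of 101 tested genes rose and 3 fell, with a median of 0.33. DNMT3B exceeded the median log2 fold change of its chromosome by 0.14. Centring used the median level of a chromosome in each library, which was 0.45 higher in TF1-BAR cells on chromosome 20 (log2 scale), and left DNMT3B with the 0.08 given above. ZMYND11 was above 474 of 592 other tested genes of chromosome 10, and within 5 Mb of it 8 of 15 tested genes fell and 0 rose, with a median of −0.32. It exceeded the median log2 fold change of its chromosome by 0.36. The median level of chromosome 10 differed by −0.41 on the log2 scale (TF1-BAR minus TF1-BA), and after centring the ZMYND11 log2 fold change was 0.43 (adjusted p = 0.0272), while its FPKM overlapped between the lines. ZMYND8 lies on chromosome 20 and TET1 on chromosome 10, and after centring their log2 fold changes were 0.17 (adjusted p = 0.161) and −0.60 (adjusted p = 0.0318). PHF19, on chromosome 9 with a median of 0.08, was above 521 of 595 other tested genes and exceeded the median by 0.54, and after centring, where the shift of the median level was 0.037, its log2 fold change was 0.58 (adjusted p = 0.0138). Within 5 Mb of PHF19, 6 of 52 genes rose and 6 fell. The part of the chromosomes in these differences was not tested.

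The calls of PHF19 and DNMT3B depended on the libraries in the fit. The PHF19 log2 fold change stayed between 0.51 and 0.72 over 16 alternatives and passed in 12 of them. Its adjusted p was 0.105 without TF1-BA replicate 1, 0.101 without TF1-BA replicate 2 and 0.0505 without TF1-BAR replicate 2. The DNMT3B log2 fold change ranged from 0.08 to 0.65 and passed in 10 alternatives, with an adjusted p of 0.120, 0.146 and 0.0619 without the same libraries. Over all tested genes, 85 were called higher and 59 lower without TF1-BA replicate 1, 25 and 17 without TF1-BA replicate 2, 547 and 481 without TF1-BAR replicate 2, and 1827 and 1349 when TF1-BAR replicate 1 was left out. Of the 19 named genes called as reported, PHF19 and DNMT3B included, 0 kept the call when either TF1-BA library was left out, 1 (ZMYND8) when TF1-BAR replicate 2 was, and 12 when TF1-BAR replicate 1 was. All 19 kept their direction in these 4 fits. Among the named partners, EXO1, UHRF1, RBBP4 and TRRAP each passed in 9 of 16 alternatives and PCNA in 8. The number of members that passed rose to 7 with limma voom on the recovered fragments, which added MSH6, DNMT3A, PSIP1, BRPF1 and PHF1, and the share of all genes that passed rose to 37.7% in that fit.

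The identity of the cells was checked with markers. All 10 erythroid and progenitor markers of TF1 were expressed, 4 rose and 0 fell, and the libraries did not overlap for 6 that were higher and 3 that were lower in TF1-BAR cells, against 26.9% of all genes called and 69.3% without overlap. CD34, KIT, TAL1 and GATA2 rose, with log2 fold changes of 1.17, 1.12, 0.76 and 0.25. The others did not pass, EPOR and CSF2RB with 0.28 and 0.27, GATA1, KLF1 and CSF2RA with −0.14, −0.34 and −0.19, and TFRC with −0.03. Of 14 matched markers of lymphoid, mature myeloid and stromal cells, CD3D, LYZ and PECAM1 stood above 5 FPKM, and CD3D fell from 19.9 ± 1.03 to 6.05 ± 0.442 FPKM. The summed level of the 14 was 60.3 and 60.8 FPKM in TF1-BA and 48.1 and 50.3 FPKM in TF1-BAR cells, and without those 3 it was 2.54 to 3.03 FPKM. CD14 and COL1A2 were at 0 in both TF1-BA libraries. The part of these markers in the members' differences was not tested.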

How the data were processed

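Per the labels, RNA of 10000000 cells per replicate was extracted with TRIzol, and libraries were made with a kit that does not mark strand. The authors mapped 150-bp paired reads to GRCh38 (TopHat2 2.0.13, Cufflinks and Cuffdiff 2.2.0, from the submitters' processing notes), and the values they deposited are FPKM per gene and library, not log transformed. The annotation release is not given in the sources used here. The deposited FPKM were tested on the log2(FPKM + 0.5) scale by lmFit and eBayes (with trend) of limma 3.58.1, R 4.3.3, and p-values of the 15519 genes whose mean FPKM reached 0.5 were adjusted by Benjamini-Hochberg. The pseudocount makes changes of low genes look smaller. The members, lists and tests were chosen with earlier results of these data known. Named genes were all members, SETD2, and the 2 genes of each list with the largest change among those with an adjusted p under 0.05. Other genes given with values were chosen after these were seen. Some genes of the lists are counted but not reported here by name.

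Fragments were recovered as whole numbers (tolerance 0.02) from library sizes and gene lengths, for 30853 genes above 0, 15180 at the GENCODE 44 exon length and 15673 at a fitted length, and 0 of 300 genes were whole with wrong sizes. A factor shared by all 4 libraries would not be seen. Fragment numbers cover counting error only. The test was tried on simulated data. Samples were grouped by their labels. The alternatives were other pseudocounts, filters and scalings, eBayes without trend, limma voom, the replicate block, centring of chromosomes, removal of the GC and length trend (with mean level and the overall shift), and leaving out each library.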

Additional observations from a re-analysis of the deposited data

How the results depend on the processing

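Of 160 values of members over 16 alternatives, 132 kept their direction and side of the threshold, 10 lost and 12 gained a call, and 6 changed sign. The number of members with an adjusted p under 0.05 (2 as reported) was 1 with eBayes without trend, 7 with limma voom, 0 with no filter on low values and 5 with TPM, and 0 to 4 when 1 library was left out. The share of all genes that passed moved too, from 26.9% to 19.9%, 37.7%, 3.77% and 29.0% in these first 4 fits, and to between 0.271% and 20.5% when 1 library was left out. For writers and erasers (5 as reported) it was 3 with the GC and length trend removed (an alternative chosen after seeing the data), 3 with chromosome centring, 2 with eBayes without trend, 2 with no filter, and 0 to 3 with 1 library left out. For other readers (4 as reported) it was 2 with no filter and 0 to 3 with 1 library left out. For complex partners (13 as reported) it was 4 with eBayes without trend, 0 with no filter and 0 to 8 with 1 library left out. Without the filter 32673 genes were tested instead of 15519. With 1 library left out, the lone library of a line was assumed to vary like the other line. The causes of the other shifts were not tested.

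The IWS1 log2 fold change was 0.0418 with TPM and 0.0343 without TF1-BAR replicate 1, and −0.0858 to 0.0343 over the fits without 1 library. That of ZMYND11 was −0.0149 with quantile normalization, −0.0148 with upper-quartile scaling, −0.0234 without TF1-BA replicate 2 and −0.0711 without TF1-BAR replicate 1, and −0.0711 to 0.0932 over the fits without 1 library. That of PCNA was −0.0659 with chromosome centring.

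With the replicate number as a block, 2 members passed, PHF19 (adjusted p = 0.0202) and DNMT3B (adjusted p = 0.0363). Same-numbered libraries had a correlation of deviations of 0.0646 over 15519 genes, a value that cannot show whether they were prepared together. ASH1L, EXO1, PCNA, SIN3B and UHRF1 had an adjusted p above 0.05 in that fit (0.0515, 0.0587, 0.0559, 0.0531 and 0.0506), and no other named gene lost or gained a call.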
